A study of Mus musculus with 6 samples.

Results

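C1q dermal macrophages are the skin-resident phagocytes that transcribe the chains of complement C1q, the protein that starts the classical complement pathway. They were selected on the measured UMIs of a few genes, as barcodes with at least 5 unique molecular identifiers (UMIs, 1 per captured transcript) of C1qa, C1qb and C1qc together, no UMI of Ly6c2 or Plac8 (monocyte genes), no UMI of Pecam1 or Cdh5 (endothelial genes), and under 1% of UMIs in Col1a1, Col1a2, Col3a1 and Dcn (fibroblast genes). Every barcode also needed at least 300 genes and at most 15% mitochondrial UMIs. This rule found 660 macrophages among 38206 barcodes, of which 25772 passed the gene and mitochondrial limits. The genes of the rule are not results.

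The study sequenced skin of Balb/c mice after 10 days of epicutaneous sensitization, with the skin taken 2 days later and digested with enzymes, on the 10x Genomics 3' platform. The 3 libraries titled EC-SAL carry the treatment label control, and the 3 libraries titled EC-OVA carry the label OVA-sensitized (OVA is ovalbumin in the usual usage, and the labels do not spell out SAL). The labels call the tissue of all 6 libraries, controls included, sensitized skin, and they give the cell type as CD4 although macrophages, keratinocytes and fibroblasts are present, and the treatment label alone sets the groups used here. The labels do not say that replicates are separate mice, so each p-value measures the spread between these libraries (n = 3 per group throughout), which may be technical.

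Dermal macrophages take up dying cells, debris and pathogens, recruit leukocytes through chemokines and present peptides on MHC class II to CD4 T cells. A population that carries Lyve1, Folr2 and Cd163 lies along vessels and is known for scavenging, while monocytes that enter inflamed skin can become macrophages with more MHC class II and the receptor Ccr2. The cytokines of type 2 immunity, which epicutaneous allergen is known to raise, act on macrophages through Il4ra and can switch on Arg1, Chil3, Retnla and Ccl24, while bacterial products and tissue damage switch on Tnf, Cxcl1 and Cxcl2 through the transcription factor NF-kB.

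The libraries held 5240 to 7978 barcodes and 25350813 to 33650630 UMIs each, and the macrophages of a library summed to 221158 to 300889 UMIs, with a median of 1466 to 1904 UMIs per macrophage. Between 33 and 87 barcode sequences were shared by any pair of libraries, and at most 1 was a macrophage in both. Most of the remaining barcodes were deeper than the macrophages, with medians of 4567 to 5334 UMIs over all barcodes that passed the limits in a library. Median mitochondrial UMIs per macrophage were 4.68% ± 0.13 (SD) in controls and 4.09% ± 0.14 after OVA, without overlap between groups. No doublet caller was run on so few macrophages, and an alternative leaves out likely doublets (21 in controls and 22 after OVA).

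The label was checked on genes the rule did not use. Pf4, a chemokine of platelets and resident macrophages, was seen in 95.6% ± 0.19 of control and 92.1% ± 2.3 of OVA macrophages, against 0.876% and 1.02% of keratin-high barcodes (at least 20 UMIs of Krt1, Krt5, Krt10 and Krt14), which were deeper (median 7857 and 8487 UMIs against 1652 and 1707). The mannose receptor Mrc1 was seen in 65.3% ± 6.8 and 67.4% ± 1.2 of macrophages and Ms4a7 in 66.8% ± 5.1 and 73.5% ± 4.4, while under 1% of keratin-high barcodes held either gene. Barcodes just inside the C1q threshold (116 with 5 to 6 C1q UMIs) held Pf4 in 94.8% and Ms4a7 in 48.3%, and those just outside (161 with 3 to 4) held Pf4 in 87.6% and Ms4a7 in 36.0%. The set is therefore called macrophages, with an edge that depends on depth: its median was 1029 UMIs just inside and 909 just outside.

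The sequences that bear on the results are the promoters of Cxcl1, Cxcl2 and Nfkbia, which fell after OVA, of Ccl8, which rose, and of 2 MHC class II genes. They are the 250 bases before the RefSeq start on the gene's strand (GRCm38.p6), read from the C57BL/6 reference, which need not match Balb/c, a strain with another MHC haplotype. Capitals mark an NF-kB-type motif, GGG and TTTCC with any 2 bases between them, in Cxcl1 (chr5:90890995-90891244, plus strand), Cxcl2 (chr5:90903649-90903898, plus strand), Nfkbia (chr12:55492648-55492897, minus strand) and Ccl8 (chr11:82114935-82115184, plus strand, no match). Capitals mark CCAAT or its complement ATTGG, the core of the Y box, in H2-Aa (chr17:34287824-34288073, minus strand) and H2-Eb1 (chr17:34305617-34305866, plus strand).
Cxcl1: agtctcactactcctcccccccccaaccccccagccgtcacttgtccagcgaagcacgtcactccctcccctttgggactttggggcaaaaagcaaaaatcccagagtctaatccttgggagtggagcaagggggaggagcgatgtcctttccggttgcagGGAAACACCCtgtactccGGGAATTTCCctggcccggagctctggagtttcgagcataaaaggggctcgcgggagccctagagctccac
Cxcl2: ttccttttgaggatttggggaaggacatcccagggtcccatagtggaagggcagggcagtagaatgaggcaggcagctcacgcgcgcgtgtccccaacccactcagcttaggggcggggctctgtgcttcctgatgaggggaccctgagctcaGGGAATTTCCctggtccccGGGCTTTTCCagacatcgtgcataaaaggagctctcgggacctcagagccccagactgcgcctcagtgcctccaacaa
Nfkbia: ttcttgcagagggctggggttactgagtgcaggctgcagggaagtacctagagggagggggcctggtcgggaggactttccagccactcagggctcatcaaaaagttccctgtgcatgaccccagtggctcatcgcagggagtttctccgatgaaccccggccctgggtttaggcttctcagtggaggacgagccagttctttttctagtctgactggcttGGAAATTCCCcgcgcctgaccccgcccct
Ccl8: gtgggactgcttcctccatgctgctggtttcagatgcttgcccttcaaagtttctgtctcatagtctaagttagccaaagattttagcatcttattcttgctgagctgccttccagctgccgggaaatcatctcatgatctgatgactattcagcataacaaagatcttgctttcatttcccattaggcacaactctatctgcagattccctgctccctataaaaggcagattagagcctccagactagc
H2-Aa: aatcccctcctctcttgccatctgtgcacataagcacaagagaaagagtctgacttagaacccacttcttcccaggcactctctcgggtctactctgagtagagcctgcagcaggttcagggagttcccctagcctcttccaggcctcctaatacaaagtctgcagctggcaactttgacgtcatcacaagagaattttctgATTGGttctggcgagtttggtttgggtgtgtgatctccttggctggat
H2-Eb1: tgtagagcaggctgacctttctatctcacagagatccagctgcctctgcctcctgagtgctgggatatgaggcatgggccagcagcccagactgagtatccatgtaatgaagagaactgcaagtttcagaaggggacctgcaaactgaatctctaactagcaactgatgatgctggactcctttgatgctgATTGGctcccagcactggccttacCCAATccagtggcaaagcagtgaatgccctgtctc

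Searched on both strands, the NF-kB-type motif was present in 464 of 32851 mouse promoters of this length (1.41%). Of the 18 genes that fell, 15 had a promoter entry and 3 of these (Cxcl1, Cxcl2 and Nfkbia) held it, and of the 14 that rose, 9 had an entry and none held it. It was chosen after the values were seen, so the counts are a description. The first base of the match lay 89 and 71 bases before the start in Cxcl1, 97 and 78 in Cxcl2, and 29 in Nfkbia. A gene can have several promoters, and 1.65% of all genes with an entry held the NF-kB-type motif in any. CCAAT was present in 33.8% of promoters, in 37.5% of genes, and in 8 of 11 MHC class II list genes with an entry. A STAT-type motif, TTC and GAA with any 4 bases between them, was in 5.85% of promoters and 6.76% of genes, in none of the 9 risen genes and in 1 of the 15 fallen genes. The form with 3 bases between them, TTCNNNGAA (7.02% of promoters, 8.13% of genes), was in none of either, and an interferon-type motif, a GAAA pair with any 2 bases between (2.98% of promoters, 3.46% of genes), was in 2 of the risen and none of the fallen genes. None of the latter motifs was in the 6 promoters shown, and the NF-kB-type motif was absent from the Tnf window too.

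Under the rule used, the groups overlapped in the share of macrophages among skin barcodes. They were 2.44%, 2.56% and 2.58% of barcodes that passed the limits in controls and 2.45%, 2.52% and 2.9% after OVA, a difference of 0.0972 percentage points (two-sided exact permutation p = 0.8). The groups overlapped, and the exact 95% binomial interval of a single library, which covers counting error only, was as wide as 2.37 to 3.50%. Among barcodes with a UMI of the leukocyte gene Ptprc plus the macrophages themselves, the share was 64.2% ± 1.9 in controls and 36.3% ± 2.6 after OVA, without overlap (p = 0.1 by the exact test, the smallest 3 against 3 can give). A share cannot tell fewer macrophages from more of the other cells, and the Ly6c2 and Plac8 condition bears on it: it removed 0, 1 and 1 barcodes with at least 5 C1q UMIs in controls and 8, 11 and 18 after OVA. With these barcodes kept, the difference was 0.375 percentage points, without overlap (exact permutation p = 0.1). The groups also separated, with each OVA library above each control (exact permutation p = 0.1), when the rule asked for at least 3 C1q UMIs (a difference of 0.420 points) or for C1q at 0.1% or more of a barcode's UMIs (0.966 points), and with at least 10 C1q UMIs they overlapped (-0.0688 points).

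**Figure D1:**
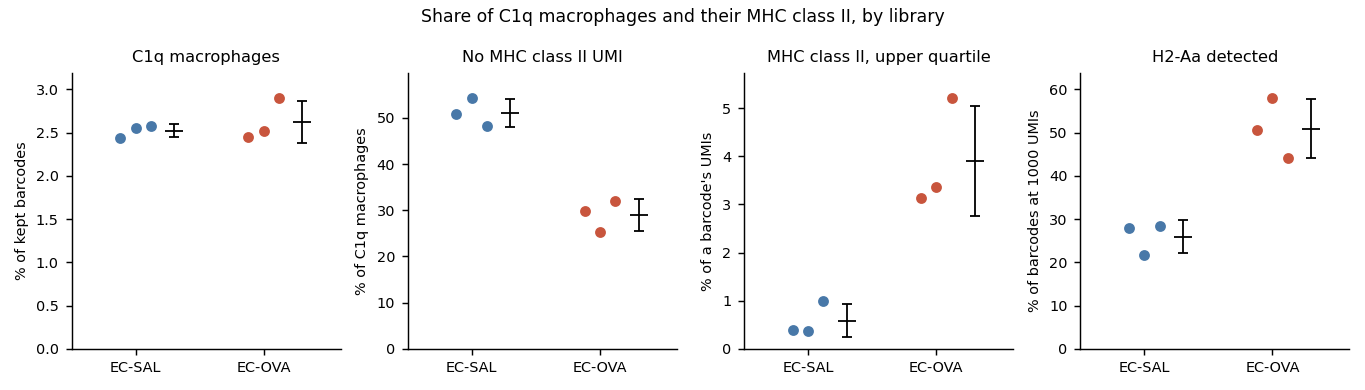
Share of C1q macrophages and 3 measures of their MHC class II, by library. Each point is 1 library (blue EC-SAL, red EC-OVA) and the black bar is the mean with its SD (n = 3). The share of barcodes overlaps between groups. The share without an MHC class II UMI is 48.2 to 54.2% in EC-SAL and 25.2 to 32.0% in EC-OVA.

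OVA changed a small number of genes in the macrophages. With edgeR's quasi-likelihood test on UMIs summed per library, 14 of 3018 genes (3025 tested, less 7 genes of the rule) were higher after OVA (0.464%) and 18 were lower (0.596%) at a Benjamini-Hochberg adjusted p under 0.05, and 405 passed an unadjusted 0.05. The chemokine Ccl8, the growth factor Nrg1 and the chemokine receptor Ccr1 rose, and the neutrophil chemokines Cxcl1 and Cxcl2, the cytokine Tnf and the monocyte chemokine Ccl2 fell. The groups did not overlap for any of these 32 genes, nor for 580 of all 3018 (19.2%). The counts moved with single libraries: without 1 library in turn 2 to 23 genes were higher and 1 to 32 lower, and Nrg1, Ccl8 and Cxcl2 were the genes that passed in all 6 of these fits. Without control 1, 2 or 3 the counts fell to 3, 4 and 2 higher and 1, 2 and 2 lower, and without OVA 1 or OVA 3 to 9 and 9 higher and 2 and 8 lower, while without OVA 2 they were 23 and 32.

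**Figure D2:**
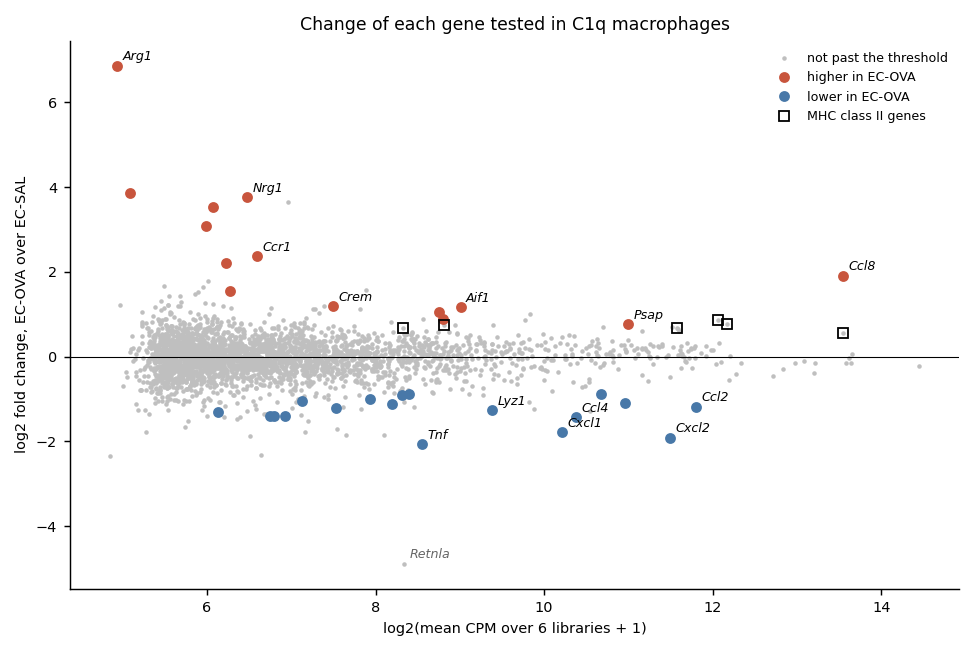
Log2 fold change (EC-OVA over EC-SAL) of each gene tested in C1q macrophages, against the log2 of its mean counts per 1000000 UMIs (CPM) plus 1. Red and blue points are the 14 higher and 18 lower genes, and open squares are 6 MHC class II genes, which all lie above 0 without passing the threshold.

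Chemokine genes changed in both directions. Of 16 chemokine genes tested, 1 rose and 4 fell, with a median log2 change of -0.45 against -0.0034 over all genes tested. Ccl8, a ligand of the receptor Ccr8 that attracts type 2 T cells in mouse skin, stood at 3742, 5403 and 6121 counts per 1000000 UMIs of the summed macrophages (CPM) in the controls and at 15928, 19715 and 21139 after OVA. The lowest OVA library was thus above the highest control, and the log2 change was 1.91 ± 0.20 (SE, adjusted p = 0.000828). At equal depth (each macrophage thinned to 1000 UMIs, which leaves out 53 shallower ones in controls and 47 after OVA), Ccl8 was seen in 54.4% ± 6.7 of control and 61.4% ± 5.6 of OVA macrophages, with overlap (exact permutation p = 0.3, 0.4 adjusted over 12 genes). Unthinned, the shares were 61.3% ± 7.3 and 67.4% ± 2.1. The libraries of the groups thus overlapped in the share of macrophages with a Ccl8 UMI and not in CPM. No single barcode held more than 5.84% of the Ccl8 UMIs of a group.

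Cxcl2, a ligand of the neutrophil receptor Cxcr2, stood at 4038, 5623 and 4014 CPM in controls and at 1174, 1066 and 1352 after OVA. It fell by 1.91 ± 0.18 (log2, adjusted p = 0.000477), and was seen in 246 of 360 control and 113 of 300 OVA macrophages. Its neighbour Cxcl1, which ends 10756 bases before the start of Cxcl2 on chromosome 5 and acts on the same receptor, stood at 1974, 2269 and 1291 in controls and at 474, 605 and 511 after OVA (log2 change -1.78 ± 0.22, adjusted p = 0.00376). Both genes were lower in each OVA library than in each control. In controls Cxcl1 was at 1845 CPM in the macrophages and 1711 in the other barcodes of these libraries, and after OVA at 530 and 2671. Averaged over both groups, Cxcl1 and 6 other fallen genes (Nfkbia, Tubb6, Cd81, Klf4, Ahnak2 and Rcan1) had more CPM in the other barcodes and no risen gene had; the part of RNA from other cells in these falls was not tested.

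Ccl2, which draws monocytes through Ccr2, stood at 4603, 5746 and 4510 CPM in controls and at 2117, 1396 and 2989 after OVA. It fell by 1.18 ± 0.23 (log2, adjusted p = 0.0374). Ccl2 (chr11:82035571-82037453) and Ccl8 (chr11:82115185-82116799) lie in 1 chemokine cluster, 77732 bases apart, and they changed in opposite directions. Ccl7 and Ccl12, which lie between them, had log2 changes of -0.47 and -0.37 that did not pass (adjusted p = 0.319 and 0.81). Ccl4, which draws monocytes and T cells, stood at 1502, 1536 and 2827 in controls and at 483, 704 and 954 after OVA and fell by 1.43 ± 0.29 (adjusted p = 0.0455). The Ccl4 call was lost with RLE scaling, with at least 10 and with at least 3 C1q UMIs (-1.12, adjusted p = 0.13 by edgeR) and without 5 of the 6 libraries in turn.

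Receptors of such ligands were measured beside them. Ccr1, a receptor of inflammatory chemokines on myeloid cells, stood at 43.2, 21.9 and 25 CPM in controls and at 140, 147 and 194 after OVA (log2 change 2.37 ± 0.30, adjusted p = 0.00376), and was seen in 19 of 360 control and 64 of 300 OVA macrophages. Ccr2, the receptor of Ccl2, stood at 36.6, 8.78 and 33.3 in controls and at 58.7, 47.7 and 118 after OVA, which did not pass (adjusted p = 0.218). At equal depth Ccr2 was seen in 1.63% ± 0.55 of control and 7.10% ± 0.94 of OVA macrophages, without overlap (exact permutation p = 0.1, 0.2 adjusted over 12 genes), against 0 of 5643 and 1 of 2535 keratin-high barcodes. Unthinned, the Ccr2 shares were 4.40% and 10.9%. In the C1q-negative MHC class II cells described further on, Ccr2 was seen at equal depth in 7.22% of control and 11.6% of OVA barcodes.

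**Figure D3:**
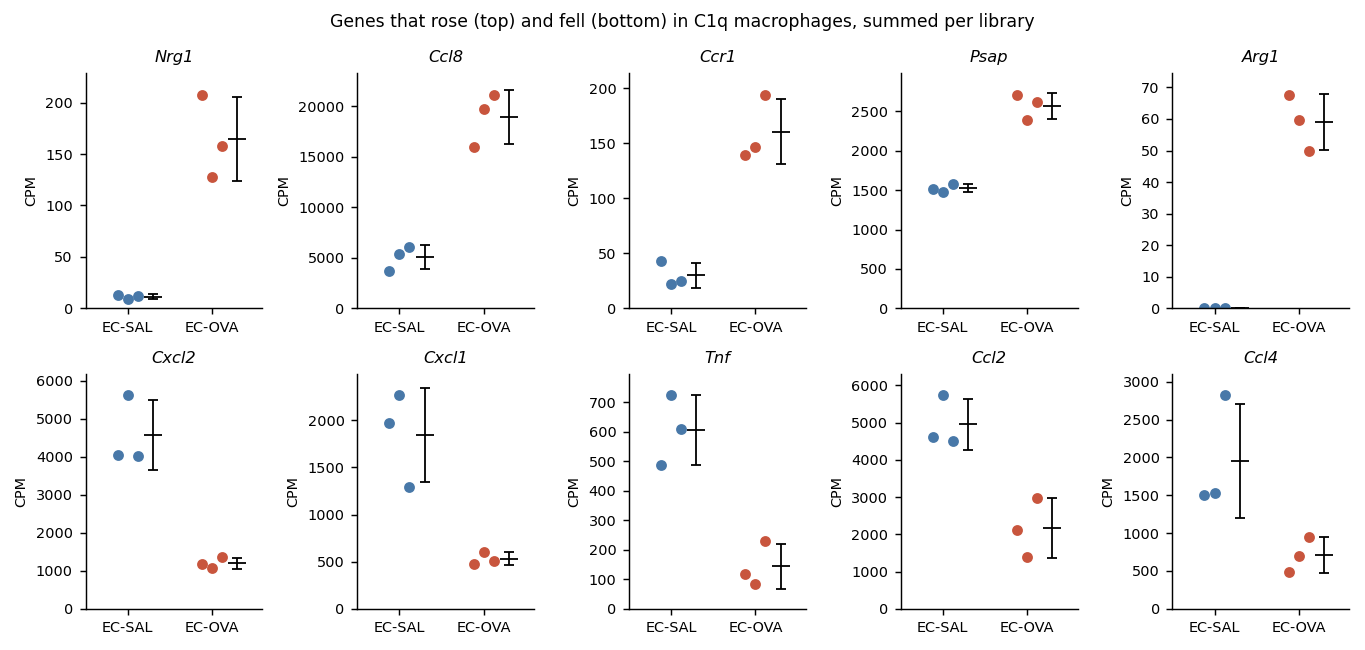
CPM of 5 genes that rose (top) and 5 that fell (bottom) in C1q macrophages. Each point is 1 library (blue EC-SAL, red EC-OVA), with the mean and its SD in black. The groups do not overlap for any of the 10 genes, and Arg1 is at 0 in all 3 EC-SAL libraries.

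Nrg1, which encodes neuregulin, a growth factor for epithelial and glial receptors of the ErbB family, had the largest log2 rise among the genes past the threshold that had UMIs in every library. It stood at 13.3, 8.78 and 12.5 CPM in controls and at 208, 127 and 158 after OVA (log2 change 3.76 ± 0.34, adjusted p = 0.000477). The UMIs came from many barcodes: 9 UMIs in 7 of 360 control macrophages and 113 in 54 of 300 after OVA. The level of Nrg1 in all other barcodes was 13 CPM in controls and 15.1 after OVA, and the difference of changes is tested further on. Leaving out 1 library in turn gave log2 changes of 3.6 to 3.91.

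Among 13 tested genes of alternative activation, the program known from type 2 cytokines, Ccl8 and Arg1 rose and the transcription factor Klf4 fell, with a median log2 change of 0.00013 against -0.0034 over all genes. Arg1, the arginase that turns arginine into ornithine, had no UMI in any control and 15, 15 and 11 UMIs after OVA, in 14 macrophages. Against 3 counts over the control group its level was at least 15.1-fold higher after OVA (adjusted p = 0.0105), and 2 of the 6 fits without a library kept the call. Chil3, another such gene, had 0 UMIs in controls and 9 in 4 OVA macrophages, at least 3.32-fold higher, and was too scarce to be tested. Klf4 stood at 392, 483 and 446 in controls and at 235, 223 and 244 after OVA (log2 change -0.89 ± 0.17, adjusted p = 0.0322).

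The other genes of the program did not pass. Retnla, a secreted protein of tissue macrophages, stood at 173, 1620 and 83.3 CPM in controls and at 18.1, 15.9 and 27.1 after OVA (adjusted p = 0.0593). A single control barcode held 361 of its 441 control UMIs, and 12 of 360 control and 8 of 300 OVA macrophages had any. Retnla passed with DESeq2 (adjusted p = 0.0100), no filter, the replicate block and Ly6c2- and Plac8-positive barcodes kept. Ccl24, an eosinophil chemokine, had a log2 change of -0.44 ± 0.22 (adjusted p = 0.426), with overlap. At equal depth it was seen in 35.9% ± 1.7 of control and 30.9% ± 1.1 of OVA macrophages (48.3% and 39.4% unthinned), without overlap (exact permutation p = 0.1, 0.2 adjusted over 12 genes). Mrc1 (0.30 ± 0.16, adjusted p = 0.448) and the cytokine receptor Il4ra (-0.13 ± 0.34, adjusted p = 0.914) did not pass either.

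The cytokine Tnf stood at 485, 724 and 608 CPM in controls and at 117, 83.5 and 231 after OVA, a fall of 2.06 ± 0.31 (log2, adjusted p = 0.0105). It was seen in 168 of 360 control and 58 of 300 OVA macrophages, and was the 1 gene of 13 tested cytokines and growth factors to change (list median -0.37). Il10, the anti-inflammatory cytokine of resident macrophages, stood at 106, 167 and 87.4 in controls and at 49.7, 35.8 and 40.7 after OVA. It just missed the threshold (-1.48 ± 0.32, adjusted p = 0.057). Il10 passed with no filter, the replicate block, at least 10 C1q UMIs, no likely doublets (adjusted p = 0.0201 by edgeR) and Ly6c2- and Plac8-positive barcodes kept. Il1b had a log2 change of 0.31 ± 0.19 (adjusted p = 0.535), and Igf1 of 0.38 ± 0.18 (adjusted p = 0.394). Of 20 tested scavenger and pattern recognition receptors 1 fell, Tlr2, a receptor of bacterial lipoproteins (list median -0.12), and of 11 tested complement and Fc receptor genes 1 fell, C5ar1 (list median 0.17). Tlr2 stood at 402, 443 and 354 in controls and at 203, 187 and 158 after OVA (-1.11 ± 0.19, adjusted p = 0.0193). C5ar1, the receptor of the complement fragment C5a, stood at 156, 180 and 146 in controls and at 58.7, 43.8 and 76.9 after OVA (-1.41 ± 0.25, adjusted p = 0.0223), a call lost at equal depth (-1.04, adjusted p = 0.143 by edgeR).

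Nfkbia, which encodes the inhibitor of NF-kB and is itself switched on by NF-kB, stood at 2071, 2072 and 2199 CPM in controls and at 1169, 1074 and 1180 after OVA (-0.87 ± 0.14, adjusted p = 0.0181). It was the 1 called gene of 25 tested members of a list of immediate early genes that tissue digestion is known to switch on, which includes Fos, Jun and Dusp1. Of these 25 genes, 24 had a negative log2 change, with a median of -0.61. The summed list was 15569 to 17182 CPM in control macrophages and 9925 to 11842 after OVA, and 21828 to 22844 and 20175 to 22164 in the other barcodes. The part of tissue digestion in the fall of Cxcl1, Cxcl2, Tnf and Nfkbia was not tested.

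Lysosome and myeloid genes were among the rises. Psap, which encodes the precursor of the saposins that help lysosomes break down sphingolipids, stood at 1512, 1479 and 1582 CPM in controls and at 2709, 2383 and 2609 after OVA (0.77 ± 0.14, adjusted p = 0.0247). It was the 1 called gene of 23 tested in the efferocytosis and lysosome list, whose median was 0.18. Aif1, a calcium-binding protein of macrophages, stood at 263, 391 and 308 in controls and at 632, 748 and 746 after OVA (1.17 ± 0.19, adjusted p = 0.0181) and was the 1 called gene of 17 tested macrophage identity genes. Lst1 and Ms4a6c, known from monocytes, had log2 changes of 2.20 ± 0.32 and 1.05 ± 0.16 (adjusted p = 0.0105 for both). Crem, Cd300c2, Srgn, AW112010 and Rnase2a also rose, by log2 changes of 0.88 for Srgn to 3.53 for Rnase2a, a gene with close paralogs between which reads could be split. A single barcode held 33 of the 79 OVA UMIs of AW112010, and Crem lost its call at equal depth (1.12, adjusted p = 0.0574 by edgeR). Rnase2a was at 4.40 without control 2 and 2.98 without OVA 2, and neither fit called it (adjusted p = 0.121 and 0.0644 by edgeR). Of the 6 fits without a library, Rnase2a, Cd300c2 and Crem each kept the call in 1, and AW112010 in 3.

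Other falls were of Lyz1, a lysozyme with the near-identical copy Lyz2, at 791, 1093 and 958 CPM in controls and 312, 497 and 357 after OVA (-1.26 ± 0.22, adjusted p = 0.0221). Lyz2 itself had a log2 change of -0.40, and the split of reads between the copies is uncertain. Lyz1 lost its call with at least 10 C1q UMIs (-1.14, adjusted p = 0.0683 by edgeR). Marcksl1, an actin regulator, stood at 2449, 3235 and 2436 in controls and at 1422, 959 and 1420 after OVA (-1.08 ± 0.19, adjusted p = 0.0221). Cd81, Rcan1, Acp5, Tubb6, Ahnak2 and G530011O06Rik fell by 0.99 for Tubb6 to 1.41 for Rcan1. Each of these 6 was lower in each OVA library than in each control. The call of Acp5 was lost with DESeq2 (adjusted p = 0.199), with RLE scaling, with the replicate block, with at least 3 C1q UMIs, with at most 10% mitochondrial UMIs and in all 6 fits without a library. Cd81 lost its call with at least 3 C1q UMIs (-0.75, adjusted p = 0.239 by edgeR) and Rcan1 with at least 10 (-1.05, adjusted p = 0.111 by edgeR).

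Markers of monocytes and of other cells were checked beside these changes. The 14 monocyte markers summed to 1665 to 1836 CPM in control macrophages and to 1869 to 2369 after OVA, with Cd300e at 0 in all 6 libraries and Ms4a6c the 1 called gene of 4 tested. Their part in the rises was not tested. When barcodes with Ly6c2 or Plac8 UMIs were kept, an alternative added after seeing the data, 33 genes were higher and 39 lower, and all 32 genes above were among them. Of the neutrophil markers S100a9, Retnlg, Cxcr2, Ly6g, Ngp and Camp were at 0, of the T and NK cell markers Trac, Trbc1, Nkg7 and Skap1, of the dendritic cell markers Zbtb46, Xcr1, Clec9a, Kit and Ffar2, and of the mast cell and basophil markers 7 of 12, among them Mcpt8 and Cpa3. Other members were present: the neutrophil list summed to 39.5 to 562 CPM in controls and 63.3 to 524 after OVA (mostly Il1r2, with 159 and 128 UMIs), the dendritic cell list to 276 to 416 and 149 to 223 (Cd209a had 139 UMIs in 65 control and 80 in 47 OVA macrophages), and the T and NK cell list to 52.7 to 179 and 63.3 to 81.3.

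Keratinocyte markers summed to 3981 to 14909 CPM in control and 746 to 12638 in OVA macrophages, and none of 12 tested passed the threshold. Their UMIs were found in fewer macrophages after OVA: Krt14 in 163 of 360 control and 58 of 300 OVA macrophages, Krt10 in 173 and 74, Lgals7 in 170 and 71, and Krt2 in 128 and 44. Single barcodes carried much of the sums, such as 928 of the 1183 OVA UMIs of Krt14. Without likely doublets Krtdap and Krt14 were called lower (2 of 8 tested), and without OVA 2, 5 of 12 were. Of all genes, 55 of 2445 and 32 of 3266 were called lower in these settings. Likely doublets were picked in part by their keratin UMIs. The calls of Krt14 and Krtdap without them were thus made on barcodes already filtered on keratin. They cannot show whether keratinocyte RNA fell. In the other barcodes the list summed to 37860 to 39098 CPM in controls and 20616 to 23817 after OVA. The part of keratinocyte RNA in the falls described above was not tested.

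MHC class II UMIs were found in more macrophages after OVA. The 4 genes H2-Aa, H2-Ab1, H2-Eb1 and Cd74, which form the class II dimers and their chaperone, had no UMI in 50.8%, 54.2% and 48.2% of control macrophages and in 29.8%, 25.2% and 32.0% after OVA. Their upper quartile was 0.385%, 0.379% and 0.982% of a barcode's UMIs in controls and 3.13%, 3.35% and 5.21% after OVA. The groups did not overlap in either measure (exact permutation p = 0.1 for the share at 0, the smallest possible). At equal depth H2-Aa was seen in 26.0% ± 3.7 of control and 50.9% ± 6.9 of OVA macrophages (28.9% and 49.7% unthinned, exact permutation p = 0.1, 0.2 adjusted over 12 genes), against 1.17% and 1.46% of keratin-high barcodes.

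In the sums, none of 10 tested genes of the MHC class II list passed edgeR's threshold, and all 10 log2 changes were positive, with a median of 0.68 against -0.0034 over all genes tested (1500 of 3025 genes positive). H2-Aa stood at 3410, 2366 and 4522 CPM in controls and at 5084, 5871 and 6285 after OVA (0.76 ± 0.21, adjusted p = 0.138), without overlap. Cd74 stood at 9425, 7058 and 12584 in controls and at 12551, 14742 and 15111 after OVA (0.56 ± 0.20, adjusted p = 0.237), with overlap. Ctss, the protease that trims the class II chaperone, came closest (0.66 ± 0.15, adjusted p = 0.0571). The calls depended on the test, the filter and the barcodes summed. With the same barcodes DESeq2 called 3 of 9 tested list genes (Ctss, H2-Ab1 and H2-Aa), and edgeR with no filter on low counts called 5 of 15. By edgeR, 6 of 9 passed without likely doublets and 7 of 9 with at least 10 C1q UMIs. H2-Aa, H2-Ab1, H2-Eb1 and Cd74 were among them in both. At equal depth 5 of 8 passed. Of all genes, 42 of 2080 passed with DESeq2 and 171 of 13518 with no filter. Without likely doublets 83 of 2445 passed, with at least 10 C1q UMIs 58 of 2256, and at equal depth 63 of 1327. All 10 tested MHC class I genes also had positive log2 changes (median 0.46), and none passed.

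The macrophages were then divided by whether a barcode, thinned to 1000 UMIs, held a UMI of Lyve1, Folr2 or Cd163, genes of vessel-associated resident macrophages. In controls 44.3%, 45.4% and 33.7% were positive, and after OVA 26.6%, 33.0% and 39.5%, with overlap (exact permutation p = 0.2). A negative barcode can be a positive cell whose transcript was not captured. Between the 2 parts, within libraries, 24 of 728 genes were higher in the positive part (3.3%) and 18 lower (2.47%) by edgeR's quasi-likelihood test with Benjamini-Hochberg adjustment. Without OVA 2 or OVA 3 there were 24 and 25 genes in all in place of 42.

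The positive macrophages had less MHC class II and more Ccl8. H2-Aa was at 1553 CPM in the positive and 5405 in the negative part (mean of 6 libraries), a log2 difference of -1.97 ± 0.19 (adjusted p = 1.06e-10 by edgeR). H2-Ab1 (-2.11 ± 0.18), H2-Eb1 (-2.25 ± 0.18), Cd74 (-2.07 ± 0.18) and the peptide-loading genes H2-DMb1 (-2.85 ± 0.38) and H2-DMa (-1.15 ± 0.23) were lower too, each in 6 of 6 libraries. Il1b, the inflammasome cytokine, was at 458 and 1538 CPM (-1.78 ± 0.18, adjusted p = 3.95e-10). Krt2, Krt10 and the epithelial gene Ly6d were also lower in the positive part; single barcodes held 51.5% and 53.8% of the control Krt2 and Krt10 UMIs of the macrophages.

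On the other side, Wfdc17, a small secreted antiprotease-like protein of myeloid cells, was at 7277 CPM in the positive and 3843 in the negative part (0.94 ± 0.10, adjusted p = 2.44e-09, higher in 6 of 6 libraries). Ccl8 was at 18089 and 10257 (0.81 ± 0.11, adjusted p = 3.01e-07, 6 of 6). The lectin Cd209d (1.07 ± 0.24, 6 of 6 libraries), the clotting factor subunit F13a1 (0.85 ± 0.23, 5 of 6), the chemokine Ccl12 (1.42 ± 0.32, 4 of 6) and the carbonyl reductase Cbr2 (0.66 ± 0.19, 6 of 6) were higher. Fcgrt, Zfp36l1, Ap2s1 and Serpinb6a passed at adjusted p of 0.0454 to 0.0475.

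**Figure D4:**
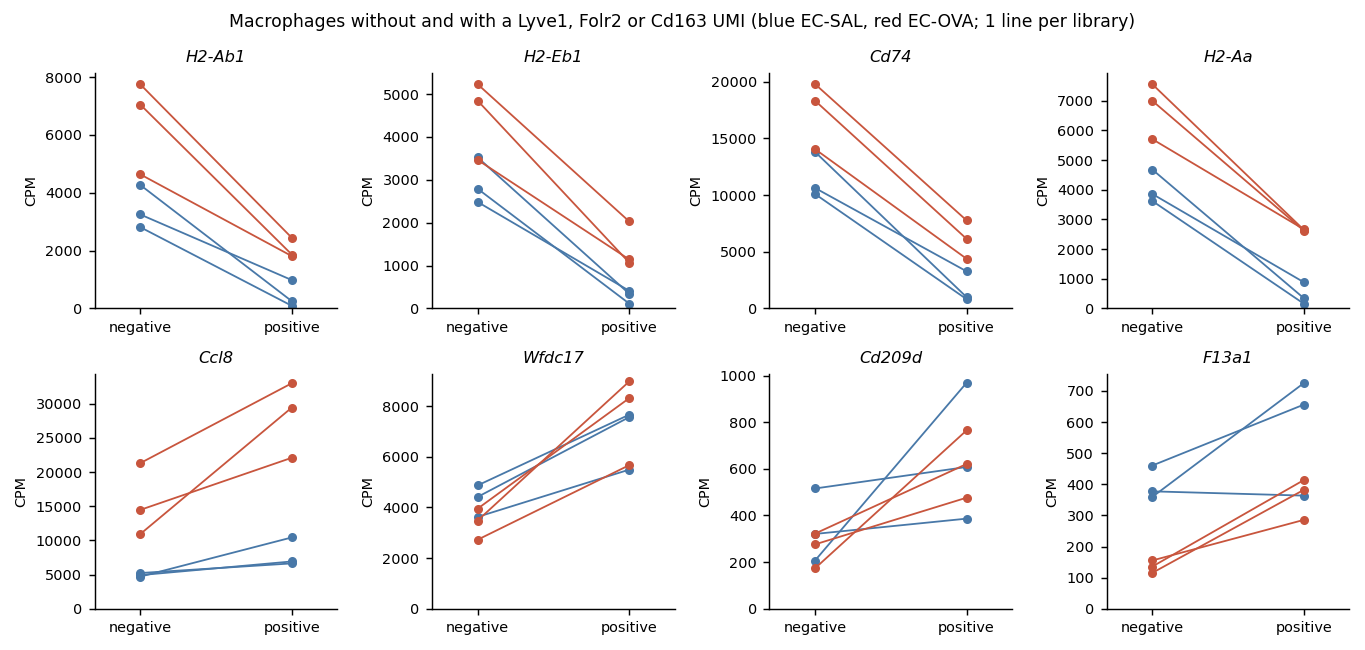
CPM of 8 genes in macrophages without (negative) and with (positive) a UMI of Lyve1, Folr2 or Cd163, each barcode thinned to 1000 UMIs. Each line joins the parts of 1 library (blue EC-SAL, red EC-OVA). The MHC class II genes fall and Ccl8 and Wfdc17 rise from the negative to the positive part in all 6 libraries.

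Both parts were set side by side across treatments, as values with no test. H2-Aa ranged from 159 to 882 CPM in positive control macrophages and from 2621 to 2667 in positive OVA macrophages, and from 3623 to 4683 and from 5707 to 7558 in the negative ones, so the groups did not overlap in either part. Ccl8 ranged from 6636 to 10438 (control) and 22095 to 33000 (OVA) in the positive and from 4698 to 5226 and 10923 to 21305 in the negative part. Cxcl2 ranged from 3000 to 4636 and 286 to 1735 in the positive and from 4317 to 7170 and 1288 to 1879 in the negative part. The ranges of Ccl8 and Cxcl2 did not overlap between treatments in either part. Overlap was seen for H2-Eb1 in the negative part (2484 to 3524 in controls and 3466 to 5231 after OVA) and for F13a1 in the positive part (364 to 725 and 286 to 414).

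Of 20 tested genes of resident, vessel-associated macrophages, 1 fell and none rose, against 18 and 14 of all 3018 genes. Their median log2 change was -0.40 with 6 of 20 positive, against -0.0034 and 1500 of 3025 over all genes tested. For 8 of the 20 the groups did not overlap, against 580 of 3018 genes (19.2%). F13a1 stood at 379, 369 and 496 CPM in controls and at 235, 195 and 226 after OVA (-0.91 ± 0.19, adjusted p = 0.0487), a call lost with RLE scaling (adjusted p = 0.0541 by edgeR), with at most 10% mitochondrial UMIs (adjusted p = 0.0545 by edgeR) and without any 1 library. The scavenger receptor Stab1 just missed the threshold (-0.93 ± 0.20, adjusted p = 0.0571). Stab1 passed with no filter, the replicate block, at least 10 C1q UMIs, no likely doublets, equal depth and Ly6c2- and Plac8-positive barcodes kept. Folr2 (-0.33 ± 0.24, adjusted p = 0.597) and Cd163 (0.09 ± 0.21, adjusted p = 0.892) did not pass.

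Lyve1, the hyaluronan receptor, was too scarce to be tested in the sums. It had 11, 8 and 9 UMIs in the control libraries, in 24 of 360 macrophages, and 0, 0 and 8 UMIs after OVA, all 8 in 1 macrophage. At equal depth it was seen in 3.82% ± 1.6 of control and 0.388% ± 0.67 of OVA macrophages (6.64% and 0.324% unthinned), without overlap (exact permutation p = 0.1, 0.2 adjusted over 12 genes), against 0.0532% and 0.0394% of keratin-high barcodes. The identity genes Pf4 (-0.30 ± 0.17), Csf1r (-0.17 ± 0.19), Adgre1 (0.31 ± 0.26), Apoe (-0.03 ± 0.18) and Trem2 (-0.09 ± 0.21) did not pass. At equal depth Pf4 was seen in 93.5% ± 0.41 of control and 86.9% ± 0.75 of OVA macrophages and Ms4a7 in 55.3% ± 4.3 and 64.4% ± 1.6, both without overlap (exact permutation p = 0.1, 0.2 adjusted over 12 genes).

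The change of each gene in the macrophages was compared with its change in all other barcodes of the same libraries. An edgeR test of the difference was used, with the library as a block. The other barcodes still held C1q-positive barcodes that the rule left out. They included 161 with 3 to 4 C1q UMIs, and 721 barcodes had at least 5 where 660 were macrophages. Of 14096 genes, 27 changed more positively in the macrophages (0.192%) and 223 more negatively (1.58%). Cxcl2, Cxcl1, Ccl2 and Ccl4 were lower after OVA in the macrophages and higher in the other barcodes taken as a whole, a mixture of cell types. Cxcl2 fell in the macrophages and was at 340 to 358 CPM in the other barcodes of controls and 654 to 700 after OVA, a difference of changes of -2.84 ± 0.17 (log2, adjusted p = 1.74e-58). Cxcl1 (-2.36 ± 0.17, adjusted p = 4.93e-39) was at 1637 to 1797 in other control barcodes and 2599 to 2787 after OVA, and Ccl2 (-2.00 ± 0.16, adjusted p = 9.52e-35) at 1560 to 1584 and 2563 to 3044. Ccl4 was at 7.35 to 10.1 and 104 to 142 in the other barcodes (-5.14 ± 0.21). All 4 kept the call without any 1 library, in all 6 fits. So did Retnla, whose control UMIs came mostly from 1 barcode, so these fits cannot separate stable calls from unstable ones.

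**Figure D5:**
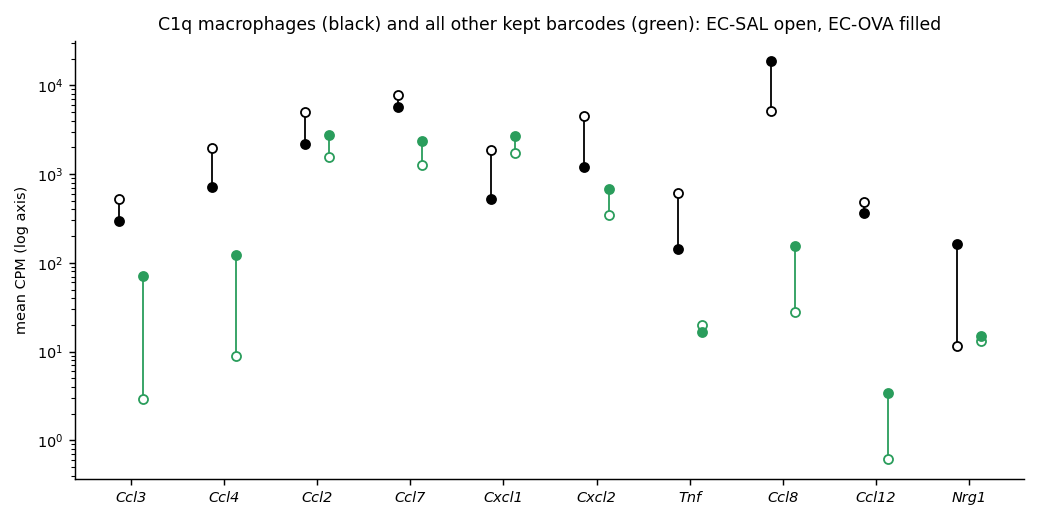
Mean CPM (log axis) of chemokines, Tnf and Nrg1 in C1q macrophages (black) and in all other barcodes (green). Open points are EC-SAL, filled points EC-OVA, each the mean of 3 libraries. Ccl2, Cxcl1 and Cxcl2 are lower after OVA in the macrophages and higher in the other barcodes, and Ccl8 is higher in both.

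This fit took 1 spread for all genes of a level, which makes p-values too small for genes whose libraries differ widely. With edgeR's robust estimate of the spread, added after seeing the data, 269 genes passed, 222 of them shared with the 250, and Nrg1 (adjusted p = 8.62e-12), Ccl4 (1.41e-09), Cxcl2, Cxcl1 and Ccl2 kept their calls. Ccl3 (-5.48, adjusted p = 0.0869) lost it, as did Retnla (-4.37, adjusted p = 0.806). Nrg1 differed by 3.64 ± 0.48 in the macrophages' favour. Ccl8 was at 26.1 to 30.9 CPM in other control barcodes and 119 to 208 after OVA. Its changes differed by -0.48 ± 0.14 (adjusted p = 0.0253 by edgeR). The log2 rise was larger in the other barcodes, at a level under 1% of that in the macrophages. The part of C1q-positive barcodes among the other barcodes in this rise was not tested.

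The nearest other antigen-presenting cells were 356 barcodes with at least 20 UMIs of the MHC class II genes, a Ptprc UMI and at most 1 C1q UMI (28 to 36 per control and 73 to 93 per OVA library). These cells were not divided by type, and made up 0.696% ± 0.10 of barcodes that passed the limits in controls and 2.23% ± 0.18 after OVA. The part of a shift in their makeup in the values below was not tested. Against the change in these cells, 1 of 3609 genes differed by edgeR's test: none higher (0%) and Cst3, a cysteine protease inhibitor, lower (0.0277%). Cst3 stood at 5075, 5377 and 6305 CPM in control macrophages and at 3905, 3377 and 4092 after OVA, and at 10205, 12563 and 13826 and 16066, 14663 and 16615 in these cells (-0.91, adjusted p = 0.0305). The call was lost in 5 of the 6 fits without a library. Cxcl2 was at 2077, 2357 and 2590 in these cells of controls and at 418, 276 and 799 after OVA. Its change did not differ from that in the macrophages by this test (0.47 ± 0.29, adjusted p = 0.722). In these cells Cxcl1 was at 692 to 937 in controls and 131 to 467 after OVA, and Tnf at 68.8 to 94.4 and 20.9 to 49.8. Ccl4 was higher after OVA there (6.66 to 209 and 511 to 561), and Ccl2 overlapped (40.5 to 206 and 53.5 to 78.3). Marcksl1 was at 2310 to 2914 and 825 to 1117 there, with a difference of changes of 0.31 ± 0.24 (adjusted p = 0.786), and Nrg1 at 27.0 to 62.6 and 67.0 to 89.2, with a difference of 3.04 ± 0.49 (adjusted p = 0.0758).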

How the data were processed

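The authors deposited, for each of 6 libraries, counts of UMIs per gene and barcode (32285 genes, at least 500 UMIs in every barcode), made with Cell Ranger 3.1.0 per the file headers. STAR and mm10 are named in the submitters' processing notes, and the annotation release is not given in the sources used here. Barcodes were selected by the rule in the report and UMIs were summed per library. filterByExpr chose the genes, TMM set the scaling, and the quasi-likelihood test of edgeR 4.0.16 (R 4.3.3) was used, with Benjamini-Hochberg adjustment over all genes tested and a threshold of 0.05. The standard error is the log2 fold change divided by the square root of F. CPM are UMIs per 1000000 of the summed macrophages. Shares were compared with two-sided exact permutation tests over libraries (scipy 1.17.1), which cannot go below 0.1 for 3 against 3. Intervals and floors (3 counts over a group) cover counting error only.

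On simulated data with 200 of 3025 genes changed, the comparison of treatments recovered 38.5% of genes at a log2 fold of 1 and 84.5% at 2, with under 5% of its calls false and 0 calls where nothing was changed. At a log2 fold of 2, the test of differences of changes recovered 76.5% and that of the split 34.5%. The simulated second cell set had the depth and spread of the macrophages, unlike the other barcodes. Both simulated parts of the split had the same depth, while the real positive parts held 21 to 51 thinned barcodes and the negative 52 to 64. These 2 recoveries therefore need not hold for the tests as run.

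The members, the 30 gene lists (575 genes, of which Clec7a and Cxcl11 are not in the gene table), the tests and the alternatives were chosen with earlier results of these data known. Genes are named by rule: the 12 largest rises and falls past the threshold without overlap and with at least 50 CPM in the higher group (predicted, ribosomal and mitochondrial genes left out), up to 4 called members of a list or else the 2 with the smallest p, and a fixed set. For differences of changes the 6 smallest p in each direction were named, and for the split the 10 largest differences with at least 100 CPM. Srgn, Tubb6, Ahnak2 and G530011O06Rik, the remaining genes past the threshold, and other genes beside them were named after their values were seen. Alternatives were DESeq2 1.42.0, RLE scaling, no filter on low counts, other C1q and mitochondrial limits, no likely doublets (any Cd3 UMI, 1% keratin UMIs, or over 3 times the library's median UMIs), equal depth, the replicate number as a block and each library left out. Coordinates are from GENCODE M21 (GRCm38) by gene ID. 1 gene past the threshold and 1 marker are not reported here.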

Additional observations from a re-analysis of the deposited data

Results flagged for a closer look

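These are genes whose change after OVA in C1q macrophages differed from the change in other cells of the same libraries by edgeR's test of that difference, given as log2 differences. Against all other barcodes, Cxcl2 differed by -2.84, Cxcl1 by -2.36, Ccl2 by -2.00 and Ccl4 by -5.14, and these chemokines were lower after OVA in the macrophages and higher in the other barcodes. Ccl3 differed by -5.48: it stood at 519 CPM in control and 293 in OVA macrophages and at 2.93 and 70.1 in the other barcodes, and it missed the threshold under a robust spread (adjusted p = 0.0869 by edgeR). Nrg1 differed by 3.64, with a rise in the macrophages in 3 of 3 OVA libraries.

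The remaining values rest on few barcodes. The haemoglobin genes Hbb-bs (6.55), Hba-a2 (8.72), Hba-a1 (7.14) and Hbb-bt (7.15) were high in OVA libraries 1 and 3 and not in OVA 2, where Hbb-bs was at 11.9 CPM against 5201 and 6050. A single macrophage barcode held 1337 of the 2493 OVA UMIs of Hbb-bs, and Hba-a1 and Hba-a2 are near-identical copies between which reads can be split. Mucl1, a secreted protein of glands, differed by 5.66 and was seen in 4 macrophages of each group. Retnla differed by -4.37, with 361 of 441 control UMIs in 1 barcode. None of these 6 passed under the robust spread (adjusted p = 0.402 to 0.806 by edgeR).

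Against C1q-negative MHC class II cells, Cst3 differed by -0.91. Its level was lower after OVA in the macrophages (3 of 3 libraries below all controls) and higher in the other set. In that set, which was not divided by cell type, Cxcl2 and Cxcl1 were lower after OVA, as in the macrophages, and Ccl4 was higher.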

How the results depend on the processing

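The counts of changed genes depended on the libraries and on the barcodes summed. In place of 14 higher and 18 lower genes, 71 and 100 passed with no filter on low counts, 25 and 33 with at least 10 C1q UMIs, 28 and 55 without likely doublets, 21 and 42 at equal depth, and 33 and 39 with Ly6c2- and Plac8-positive barcodes kept. Leaving out 1 library in turn gave 2 to 23 higher and 1 to 32 lower genes. DESeq2 (19 and 23), RLE scaling (14 and 15), at least 3 C1q UMIs (21 and 21) and at most 10% mitochondrial UMIs (15 and 15) stayed within 1.5 times. Of 28 named genes past the threshold, 20 passed under all other settings that could test them and 3 in all 6 fits without a library, and none changed sign. The deviations of the same-numbered libraries of the groups had correlations of 0.0469, -0.0374 and 0.0884, and those of the other pairs ranged from -0.198 to 0.140. So few libraries cannot show whether the numbers pair them, and the labels do not say. With the replicate number as a block 19 genes were higher and 27 lower. The share of macrophages differed by 0.0972 points as before (exact permutation p = 0.75).

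The share of macrophages (0.0972 percentage points higher after OVA) turned to -0.0688 with at least 10 C1q UMIs and -27.9 among Ptprc-positive barcodes, and ranged from -0.0410 (without OVA 3) to 0.184 without 1 library. It was 0.420 with at least 3 C1q UMIs and 0.966 with C1q at 0.1% of UMIs or more, and in both the groups did not overlap. Genes that differed from C1q-negative MHC class II cells were 57 with no filter and 0 to 2 without 1 library. The 42 genes of the split by Lyve1, Folr2 and Cd163 became 24 to 33 without 1 library, and the 250 that differed from other barcodes 194 to 265. Fixed genes whose shares did not overlap were 6 of 12, and 6 to 8 without 1 library. Shares were not computed for all genes, so these counts have no background of the same kind. In the sums, 580 of 3018 genes (19.2%) did not overlap. The causes were not tested.

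Some named genes far from the threshold changed sign (log2 change after OVA). Cd163 was at -0.0565 at equal depth, -0.0741 with Ly6c2- and Plac8-positive barcodes kept and -0.0386 (without OVA 3) to 0.28 without 1 library. Apoe was at 0.0047 with at least 10 C1q UMIs and -0.20 to 0.15 without 1 library, and Sbsn at 0.0565 with at least 10 C1q UMIs. Spp1 was at -0.35 with at least 3 C1q UMIs, and Il1r2 at 0.25 with the replicate block. Without 1 library, Il1r2 ranged from -1.54 to 1.69, Tbc1d4 from -0.66 to 0.58, Il4ra from -0.41 to 0.12, Trem2 from -0.23 to 0.12 and Gsn from -0.000432 to 0.73.

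The depth of the macrophages limits what was tested: scarce genes such as Lyve1, Chil3 and Cx3cr1 had too few UMIs.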

Other observations

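Other gene groups of the macrophages were set beside all genes, of which 14 of 3018 were higher and 18 lower. None of 9 tested lipid-associated macrophage genes passed the edgeR threshold (median log2 change 0.07), with Fabp5, a fatty acid carrier, at 711, 676 and 437 CPM in controls and 1616, 998 and 1026 after OVA (1.01 ± 0.24, adjusted p = 0.0744). Fabp5 passed under each other setting run except RLE scaling and 5 of the 6 fits without a library, with adjusted p of 0.00542 by DESeq2 and 0.000208 by edgeR without likely doublets. None of 11 genes of iron and haem handling (median -0.33), 13 of glycolysis and hypoxia (median 0.04) and 8 of the cell cycle (median -0.40) passed either. Of 6 tested type I interferon-stimulated genes none passed. Isg15, a ubiquitin-like protein of the interferon response, stood at 249, 435 and 271 in controls and at 181, 103 and 118 after OVA (-1.23 ± 0.27, adjusted p = 0.0571). Isg15 passed with DESeq2 (adjusted p = 0.0245), no filter on low counts, at least 3 C1q UMIs, no likely doublets (0.00608 by edgeR) and equal depth. Most interferon-gamma-induced genes were too scarce: 2 of 27 were tested, and the chemokine Cxcl9 had 3 UMIs in controls and 2 after OVA. Cx3cr1, the fractalkine receptor, had 3 and 9 UMIs, and Ciita, the switch of MHC class II transcription, 7 and 8.

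Among 20 scavenger and pattern recognition receptors Tlr2 was the 1 gene to pass (median -0.12), and among 11 complement and Fc receptor genes C5ar1 (median 0.17). Of 13 tested genes of matrix remodelling F13a1 passed (median 0.38), and of 17 macrophage transcription factors Klf4 (median -0.11).

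Of the marker lists of other cells not yet given, none of 2 tested fibroblast, 1 endothelial, 5 Langerhans cell, 1 T and NK cell, 2 dendritic cell and 1 neutrophil genes passed. The endothelial gene, the water channel Aqp1, missed the threshold at -1.39 and passed with DESeq2 (adjusted p = 0.036), no filter on low counts, the replicate block, at least 10 C1q UMIs, no likely doublets, equal depth and Ly6c2- and Plac8-positive barcodes kept. The fibroblast gene Sparc passed with no filter and with the replicate block (1.14, adjusted p = 0.0186 by edgeR). The Langerhans cell list summed to 1183, 316 and 2282 CPM in control macrophages and to 1440, 680 and 208 after OVA. In the other barcodes it summed to 1940 to 2014 in controls and 1272 to 1481 after OVA. The part of Langerhans cell RNA in the MHC class II values was not tested. No mast cell and basophil or red cell gene met the filter on low counts, which asks for UMIs in enough libraries, and haemoglobin UMIs were high in 2 OVA libraries only. With no filter 4 of 5 red cell genes were called higher, as were 4 of 4 tested without OVA 2, and Hbb-bs with at least 3 C1q UMIs. Of all genes, 71 of 13518 were called higher with no filter and 23 of 3266 without OVA 2. The 5 red cell markers summed to 33.2 to 41.6 CPM in control and 31.8 to 11946 CPM in OVA macrophages.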
